A study of Mus musculus with 3 samples.

Results

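Skin regulatory T cells were described in 2 single-cell libraries of mouse skin. They were chosen as barcodes with at least 200 genes, at most 20% mitochondrial UMIs (unique molecular identifiers, each standing for 1 captured transcript), at least 1 UMI of Foxp3, at least 1 UMI of Cd3e, Cd3d, Cd3g or Trac, and 0 UMIs of Cd8a, Trdc, C1qb and Krt5. This rule took 868 of 25791 kept skin cells, 462 from control and 406 from RHS. Both libraries held skin cells of MC903-treated mice selected with CD45 beads and captured with the BD Rhapsody system. MC903 (calcipotriol), a vitamin D analogue, is applied to mouse skin to model atopic dermatitis. The control library is described as MC903-treated and the RHS library as treated with RHS and MC903, so both groups carry the MC903 treatment. The abbreviation RHS is not expanded in the labels, and the preparation text also names EtOH-treated mice. How many mice gave each skin library, and their strain, age and genotype, are not given in the sources used here. Its title says that the series concerns sympathetic nerves, eosinophils and psychological stress in skin inflammation, and a further library held nuclei of sympathetic ganglia from mice given RHS and MC903.

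Regulatory T cells are Cd4 T cells that restrain other immune cells. Their identity depends on the transcription factor Foxp3. They compete for interleukin 2 through the receptor chain Il2ra, limit costimulation through Ctla4 and activate transforming growth factor beta through Lrrc32 and the integrin chain Itgb8. In skin they lie close to hair follicles, and many carry Il1rl1, the receptor for the alarmin interleukin 33, and Areg, an epidermal growth factor receptor ligand linked to tissue repair.

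Each group was 1 library, so no difference between control and RHS has a replicate check, and no test was possible. All ratios below are of UMIs summed over cells and scaled to 1000000 UMIs of the same cells (CPM). Bracketed ranges are 95% intervals that cover counting error only. A gene was called higher or lower when its ratio was at least 1.5 or at most 1/1.5 with at least 50 UMIs in all. The deposited skin libraries held 55200785 and 52762575 UMIs in 12979 and 13339 barcodes, and 5 barcodes occurred in both. The regulatory T cells held 1951233 UMIs in control and 1481286 in RHS. Their median depth was 2611 UMIs and 1364 genes a cell in control and 2276.5 UMIs and 1190 genes in RHS. Depth ran from 505 to 21595 UMIs a cell in control and from 599 to 23522 in RHS.

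The values that chose the cells were as follows. Foxp3 was found in 535 kept cells of the control library and 472 of the RHS library, of which 73 and 66 did not meet the rest of the rule. The largest single reason was the absence of all 4 T cell genes, in 34 and 30 cells. Members held 1 UMI of Foxp3 in 101 control and 99 RHS cells and 3 or more in 274 and 197 cells, with a maximum of 15 and 13. A Foxp3 UMI also occurred in 4 of 1025 Krt5 keratinocyte barcodes of control and 1 of 412 of RHS (0.390% and 0.243%). Cells just inside the limit carried the other markers too. Members with 1 Foxp3 UMI held at least 2 of Ctla4, Ikzf2 and Tnfrsf4 in 86.1% of control and 82.8% of RHS cells. Just outside it, conventional Cd4 T cells with 0 Foxp3 UMIs did so in 26.8% and 21.3%. Conventional Cd4 T cells were defined by at least 1 UMI of Cd4, at least 1 of the same 4 T cell genes and 0 of Foxp3, Cd8a, Trdc, C1qb and Krt5, which gave 664 control and 592 RHS cells.

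Regulatory T cells were 3.63% (3.31 to 3.97) of kept cells in control and 3.11% (2.82 to 3.42) in RHS, a ratio of 0.856 (0.747 to 0.980). Among all T cells the share was 16.1% (14.7 to 17.5) in control and 11.8% (10.8 to 13.0) in RHS, a ratio of 0.737 (0.643 to 0.844). Set against conventional Cd4 T cells alone, the share differed between the libraries by less than its counting error. Regulatory cells were 41.0% (38.1 to 44.0) of regulatory plus conventional Cd4 T cells in control and 40.7% (37.6 to 43.8) in RHS, with a ratio interval of 0.866 to 1.135. The conventional class required a Cd4 UMI and the regulatory class did not. A Cd4 UMI was found in 56.3% of control and 55.9% of RHS regulatory cells. Conventional cells without a Cd4 UMI were not counted, so the size of this share depends on the rules. Cd8a T cells, which enter the denominator of all T cells, were 3.53% of kept cells in control and 9.50% in RHS. With Cd8a and Trdc cells left out of the denominator the share was 25.7% and 21.1%, a ratio of 0.822 (0.717 to 0.941), still lower in RHS. Both libraries passed CD45 bead selection, and the other cell types they held differed in number. Macrophage barcodes numbered 1816 in control and 2872 in RHS, and keratinocyte barcodes 1025 and 412.

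**Figure D1:**
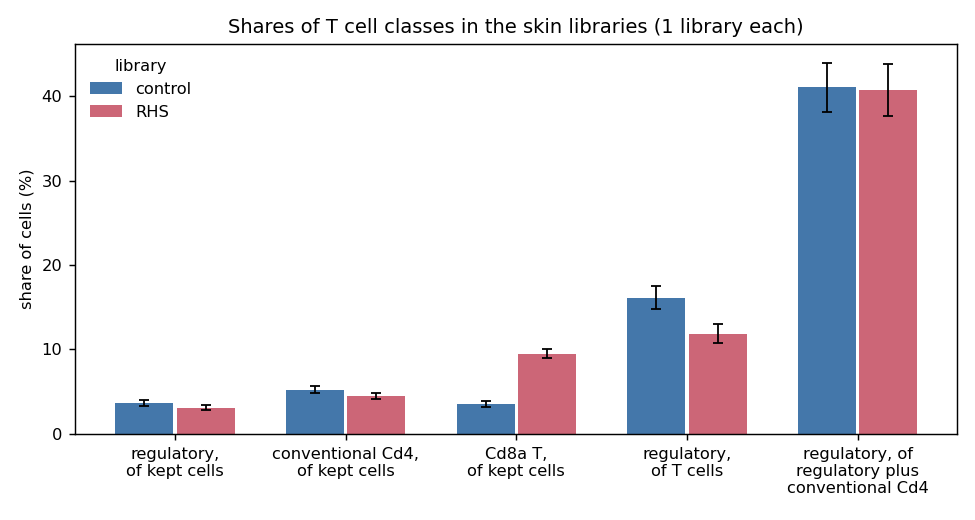
Share of cells (%) in each class, control in blue and RHS in red, with 95% counting intervals as bars. The regulatory share of all T cells is 16.1% in control and 11.8% in RHS, while their share among regulatory plus conventional Cd4 T cells is 41.0% and 40.7%.

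The label was checked against markers the rule did not use. Ctla4, the receptor that competes with Cd28 for its ligands, gave 2403 UMIs in regulatory and 514 in conventional Cd4 T cells of control. In RHS it gave 2233 and 527 UMIs. The level in regulatory cells was 4.59-fold (4.17 to 5.06) that of conventional cells in control and 4.09-fold (3.72 to 4.51) in RHS. Ikzf2 (Helios), a transcription factor of regulatory T cells, gave 2346 against 200 UMIs in control and 1466 against 119 in RHS. These are ratios of 11.5 (9.97 to 13.4) and 11.9 (9.86 to 14.5). Tnfrsf4 (OX40), a costimulatory receptor that activated conventional cells also carry, was 1.82-fold (1.67 to 1.98) and 1.77-fold (1.58 to 1.98) higher. Ctla4 was detected in 87.7% (84.3 to 90.5) of control and 87.4% (83.8 to 90.5) of RHS regulatory cells, against 32.4% and 33.4% of conventional cells. In keratinocyte barcodes, whose median depth was 6615 and 5402 UMIs, the share was 3.32% and 3.16%. All 3 markers therefore stood above conventional Cd4 T cells in both libraries.

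Across 8350 genes with enough UMIs, 1035 (12.4%) were at least 1.5-fold higher in regulatory than in conventional Cd4 T cells in both libraries. Another 572 (6.85%) were lower in both. Counts of list members against conventional cells stand beside these 12.4% and 6.85% of all genes, and no list was tested against them. The median gene was 0.12 higher in control and 0.08 in RHS on the log2 scale. With library factors from the median ratio in place of UMI totals, the split was 807 higher and 708 lower, so 53.3% of calls were higher in place of 64.4%. Foxp3 and Cd4 were left out because the rules use them. Only the conventional class required a Cd4 UMI. With members also required to hold one, 1038 genes were higher and 697 lower of 7914 tested.

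Of 15 suppressive effector genes measured, 8 were higher in regulatory cells and 3 lower, beside 12.4% and 6.85% of all genes. The other 4 met neither limit. The list's median log2 ratio was 0.81, beside 0.10 over all genes tested. Itgb8, the integrin chain that frees active transforming growth factor beta, gave 89 UMIs against 6 in control and 78 against 4 in RHS. Its ratios were 14.6 (6.44 to 40.8) and 18.8 (7.07 to 70.8). Lrrc32 (GARP), which holds latent transforming growth factor beta on the cell surface, was 4.91-fold and 8.50-fold higher. Il10, an anti-inflammatory cytokine, gave 44 UMIs against 5 in control and 42 against 14 in RHS. Gzmb, a granule protease, was 3.88-fold (3.55 to 4.25) higher in control and 2.59-fold (2.38 to 2.81) in RHS. Ebi3, a subunit of interleukin 35, was higher by 1.75 and 1.76 times, and Entpd1 (CD39), which breaks down extracellular ATP, by 1.66 and 1.87 times. Il12a of the same list gave 0 UMIs in the regulatory cells. The 3 members that were lower were Nt5e, Fgl2 and Lgals3. Nt5e (CD73), which makes adenosine from the product of Entpd1, was 2.39-fold lower in control and 2.00-fold lower in RHS.

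Among receptors, Il2ra was 3.59-fold (3.25 to 3.96) and 2.89-fold (2.59 to 3.23) higher in regulatory cells. The shared chain Il2rb met neither limit, with ratios of 0.903 and 0.909. Costimulatory and checkpoint receptors were higher for 6 of 17, beside 12.4% of all genes, including Tnfrsf9 (4-1BB) at 1.51 and 1.68. They were lower for 3 of 17, beside 6.85% of all genes, including the inhibitory receptor Pdcd1 (PD-1) at 2.39-fold and 2.60-fold lower. Tnfrsf18 (GITR) and Icos were near equal between the classes, with ratios of 1.07 and 1.06 for Tnfrsf18 and 0.930 and 0.913 for Icos.

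Transcription factors separated the classes in both directions. Ikzf4 (Eos), a Foxp3 partner, was 4.72-fold and 3.21-fold higher. Prdm1 (Blimp-1), Maf and Batf, factors of effector regulatory cells, were higher by 3.31, 2.84 and 1.88 times in control and 2.38, 2.09 and 1.77 times in RHS. Of the 19 effector and lineage factors measured, 5 were higher and 7 lower, beside 12.4% and 6.85% of all genes. Tcf7 (TCF-1), a factor of naive and memory T cells, gave 24 UMIs against 412 in control and 9 against 396 in RHS, 17.5-fold and 45.6-fold lower. Gata3, the type 2 lineage factor, was 2.17-fold and 2.44-fold lower, and the chromatin organiser Satb1 3.06-fold and 3.13-fold lower. Gata3 was still present at 612 and 430 UMIs in the regulatory cells. Tbx21, the type 1 factor, was found in 5 control and 8 RHS members.

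Type 2 cytokines gave almost no UMIs in regulatory cells. Of 21 T cell cytokine genes measured, 13 were lower than in conventional Cd4 T cells, beside 6.85% of all genes. Only 1, Il10, was higher, beside 12.4%. Il4 gave 3 UMIs in regulatory cells against 116 in conventional cells of control, a ratio of 0.0254 (0.00516 to 0.0761). In RHS it gave 0 against 136, at least 47.0-fold lower with the 0 set at a floor of 3 UMIs. Il5 gave 0 UMIs in both libraries, against 151 and 121, and was at least 51.2-fold and 41.8-fold lower. Il13 gave 1 UMI in each library against 71 and 61. These 3 cytokines drive allergic inflammation, and the conventional cells of both libraries contained them. Csf2, a myeloid growth factor, gave 1 and 0 UMIs against 79 and 63, and Ifng 0 and 0 against 88 and 21. The surface ligand Tnfsf8 (CD30 ligand) gave 16 UMIs against 1205 in control and 11 against 607 in RHS, 76.7-fold and 57.2-fold lower. The ligands Tnfsf11 (RANKL) and Ccl1 and the vesicular glutamate transporter Slc17a6 were also among the 10 genes with the lowest ratios.

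The neuropeptide gene Calca was among those 10 as well. It gave 22 UMIs in regulatory and 522 in conventional Cd4 T cells of control, and 7 and 352 in RHS, 24.2-fold and 52.1-fold lower. Ramp3, a partner of the receptors for calcitonin-family peptides, gave 209 against 1845 UMIs in control and 128 against 1193 in RHS. It was detected in 23.2% of control and 18.2% of RHS regulatory cells, against 70.5% and 61.5% of conventional cells. Calcrl, the receptor that Ramp3 pairs with, gave 8 and 9 UMIs in the regulatory cells. The protease inhibitor Serpinb1a was 29.5-fold and 40.0-fold lower. Calca, Il5, Il13, Kit and Cxcr6 also mark type 2 innate lymphoid cells, and all 5 measured genes of that marker list were lower in regulatory cells, with Nmur1 at 0 in them. The part of such cells in the conventional class was not tested.

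The genes with the highest ratios included the known markers Ikzf2, Klrg1, Itgb8 and Ccr6, with others of different roles. Klrg1, an inhibitory receptor of differentiated lymphocytes, gave 594 UMIs against 39 in control and 387 against 44 in RHS. Its ratios were 15.0 (10.8 to 21.3) and 8.49 (6.21 to 11.9). Gad1, an enzyme that makes the transmitter GABA, gave 57 UMIs against 2 in control and 39 against 3 in RHS. Regulatory T cells held 81.4% of the Gad1 UMIs of all kept cells in control and 65.0% in RHS. Dgat2, which makes triglycerides, was 12.9-fold (6.31 to 30.6) and 9.33-fold (4.04 to 26.5) higher. Adgrl2, an adhesion receptor, gave 108 against 8 and 66 against 4 UMIs. Tff1, Ankrd55, Ankrd6, Frmd5, Hsbp1l1, Ky and the phosphatase gene Ptpn5 were also among them. Ptpn5 gave 58 UMIs against 0 in control, at least 19.0-fold higher, and 35 against 4 in RHS.

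**Figure D2:**
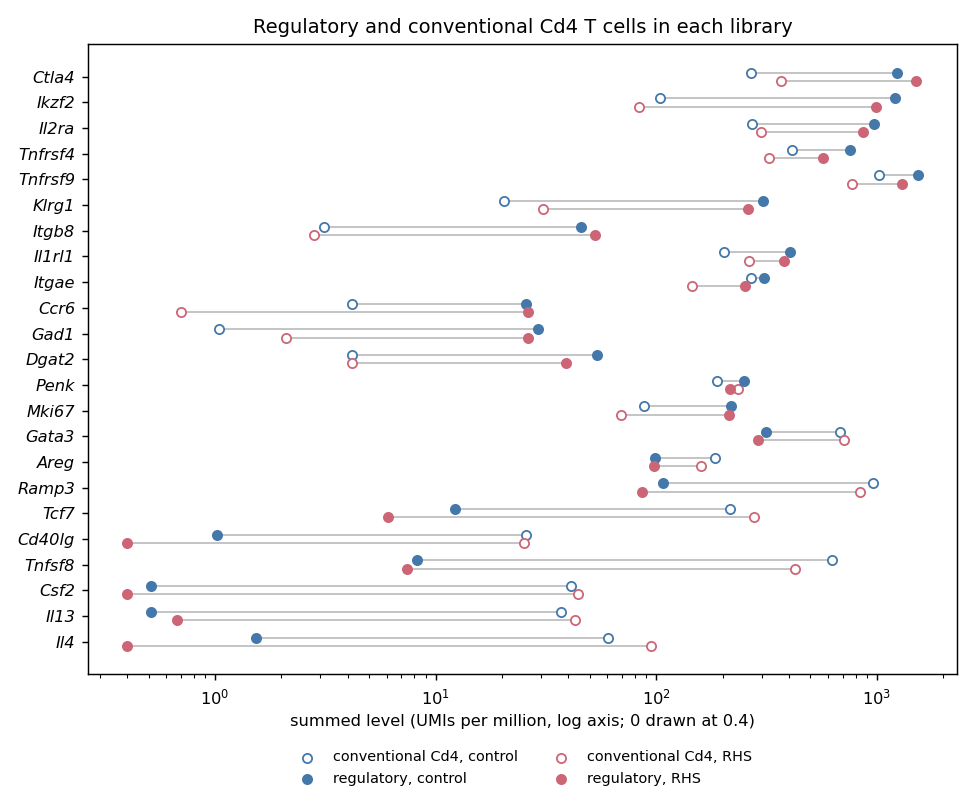
Summed level (CPM, log axis, with 0 drawn at 0.4) of 23 genes in regulatory (filled) and conventional Cd4 T cells (open) of control (blue) and RHS (red). The filled points of Ctla4, Ikzf2 and Klrg1 lie to the right of the open ones in both libraries, and those of Tcf7, Tnfsf8, Il13 and Il4 to the left.

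Homing genes divided as well. Of 22 measured, 5 were higher in regulatory cells and 6 lower, beside 12.4% and 6.85% of all genes. Ccr6, the receptor for Ccl20, gave 50 UMIs against 8 in control and 39 against 1 in RHS. Ccr2 was 2.51-fold and 2.06-fold higher. Cxcr6, a receptor of tissue-resident T cells, gave 141 UMIs against 1804 in control and 87 against 1196 in RHS, 13.0-fold and 14.2-fold lower. The residency marker Cd69 was 2.34-fold and 1.96-fold lower. Itgae (CD103), which binds E-cadherin on keratinocytes, met the limit in RHS only, with ratios of 1.15 in control and 1.74 in RHS, and the difference between them was not tested.

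Repair genes were mostly lower in summed UMIs. Of 16 measured tissue repair and alarmin genes, 10 were lower in regulatory cells, beside 6.85% of all genes. Only 1, Tgfbr1, was higher, beside 12.4%. Areg gave 193 UMIs against 354 in control and 145 against 228 in RHS, 1.87-fold and 1.63-fold lower. The share of cells with an Areg UMI went the other way, at 17.7% of regulatory against 14.2% of conventional cells in control and 16.7% against 9.29% in RHS. After thinning to 1000 UMIs these shares were 8.97% against 8.33% and 8.71% against 6.53%. Il1rl1 was 2.00-fold (1.76 to 2.26) higher in control and 1.45-fold (1.27 to 1.65) in RHS, so it missed the limit in 1 library.

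Cell cycle genes were higher as a group. Of 23 proliferation genes, 20 were higher in regulatory than in conventional Cd4 T cells, beside 12.4% of all genes, and 3 met neither limit. Their median log2 ratio was 1.46, beside 0.10 over all genes. Mki67 gave 427 UMIs against 169 in control and 317 against 99 in RHS. Top2a was 2.35-fold and 3.13-fold higher. After each cell was thinned to 1000 UMIs, Mki67 was detected in 10.99% (8.24 to 14.3) of control and 10.8% (7.88 to 14.4) of RHS regulatory cells, against 5.09% and 4.06% of conventional cells. Before thinning the regulatory shares were 28.8% and 25.9%. Thinning left out 16 control and 27 RHS members with fewer UMIs. The classes were set before thinning, so any leaning of the Foxp3 rule to deeper cells remained. Mki67 was 110, 169 and 255 CPM in control members with 1, 2 and 3 or more Foxp3 UMIs, beside 88.2 in conventional cells. In RHS it was 177, 170 and 245 CPM, beside 69.2. The part of depth in these differences was not tested.

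Between RHS and control, 6784 genes could be compared in the regulatory T cells. Of these, 190 (2.8%) were called higher and 462 (6.81%) lower in RHS, with a median log2 ratio of -0.02. The counting interval excluded 1 for 150 and 334 of them. No list of regulatory T cell identity had more than 2 called members in either direction. Counts in the lists below stand beside these 2.8% and 6.81% of all genes, and no list was tested against them.

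Ctla4 was 1232 CPM in control and 1507 in RHS, a ratio of 1.22 (1.16 to 1.30). Its ratio was 1.37 in conventional Cd4 T cells and 1.30 in all other kept cells. Ikzf2 was 1202 and 989.7 CPM, a ratio of 0.823 (0.771 to 0.879), with 0.798 in conventional and 0.772 in other cells. Tnfrsf4 was 752 and 572 CPM, a ratio of 0.761 (0.698 to 0.829), with 0.782 and 0.7498 in the other classes. None of the 3 markers met a limit, and each lay on the same side of 1 in all 3 groups of cells.

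The costimulatory receptor Tnfrsf18, called lower, was the 1 called of 12 genes in its list that passed the minimum, beside 6.81% of all genes. It gave 1037 UMIs in control and 328 in RHS, a ratio of 0.417 (0.367 to 0.472). It was detected in 79.0% of control and 45.8% of RHS members, or 48.2% and 21.1% after thinning. Tnfrsf18 had ratios of 0.422 in conventional Cd4 T cells and 0.427 in all other kept cells. Tnfrsf9 and Icos met neither limit, with ratios of 0.845 and 0.960.

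Interleukin 2 signalling genes gave 1 higher and 2 lower of 9 genes, beside 2.8% and 6.81% of all genes. Il2ra was 1895 UMIs in control and 1280 in RHS, a ratio of 0.890 (0.828 to 0.956), and Il2rb 0.961 (0.901 to 1.03). Stat5a, which carries the interleukin 2 signal to the nucleus, gave 361 and 138 UMIs, a ratio of 0.504 (0.411 to 0.614). Cish, a target and inhibitor of that pathway, gave 215 and 92 UMIs, a ratio of 0.564 (0.437 to 0.723). In all other kept cells Stat5a and Cish had ratios of 0.497 and 0.601. Socs3, an inhibitor of cytokine signalling, was the gene called higher, at 37 and 45 UMIs, with a ratio of 1.60 (1.01 to 2.55).

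Among suppressive effectors, 2 of 15 were called lower and none higher, beside 6.81% and 2.8% of all genes. The list median was 0.09 on the log2 scale. Lrrc32 gave 100 UMIs in control and 44 in RHS, a ratio of 0.580 (0.397 to 0.834), beside 0.541 in other cells. Pdcd1lg2 (PD-L2) gave 65 and 28 UMIs, a ratio of 0.567 (0.351 to 0.897), beside 0.804. The others met neither limit. Itgb8 had a ratio of 1.15 (0.841 to 1.58), Entpd1 1.06 (0.791 to 1.42), Ebi3 0.859 (0.630 to 1.16) and Il10 1.26 (0.804 to 1.96). Gzmb was 2376 and 2106 UMIs, a ratio of 1.17 (1.10 to 1.24), while in conventional Cd4 T cells it was 1.75.

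Identity and lineage factors were called between the libraries about as often as all genes, of which 6.81% were called lower. Of 15 regulatory T cell factors, 1 was called lower. It was Ikzf3 (Aiolos), with 407 and 203 UMIs and a ratio of 0.657 (0.552 to 0.779), beside 0.626 in other cells. Of 14 effector factors, 1 was called lower. It was Prdm1, with 172 and 84 UMIs and a ratio of 0.643 (0.490 to 0.840), beside 0.867 in other cells and 0.894 in conventional Cd4 T cells. Gata3 had a ratio of 0.926 (0.816 to 1.05). None of 21 further signature genes was called, with a list median of -0.20. Klrg1 gave 594 and 387 UMIs, a ratio of 0.858 (0.753 to 0.977), where conventional Cd4 T cells had 1.51 and other cells 1.63. The difference between classes in these ratios was not tested.

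The genes of tissue adaptation named above met neither limit. Il1rl1 gave 790 and 562 UMIs, a ratio of 0.937 (0.840 to 1.05), and Areg 193 and 145, a ratio of 0.990 (0.792 to 1.23). In tissue repair and alarmin genes 2 of 11 were called, both lower, beside 6.81% of all genes. Vegfa, a vessel growth factor, gave 37 and 13 UMIs, and Ptger4, a prostaglandin E2 receptor, 47 and 20. For Vegfa 1 control cell held 13 of the 37 UMIs.

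Homing genes had 2 of 21 called lower, Ccr7 and S1pr4, beside 6.81% of all genes. Ccr7, which guides cells to lymph nodes, gave 316 and 143 UMIs, a ratio of 0.596 (0.486 to 0.729), beside 0.982 in conventional Cd4 T cells and 0.677 in other cells. A single control cell held 47 of the 316 UMIs. S1pr1, the exit receptor from tissue and lymph nodes, had a ratio of 0.687 (0.571 to 0.823), short of the limit, where conventional cells had 1.35 and other cells 1.25. Itgae and Ccr4 had ratios of 0.826 and 1.01.

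**Figure D3:**
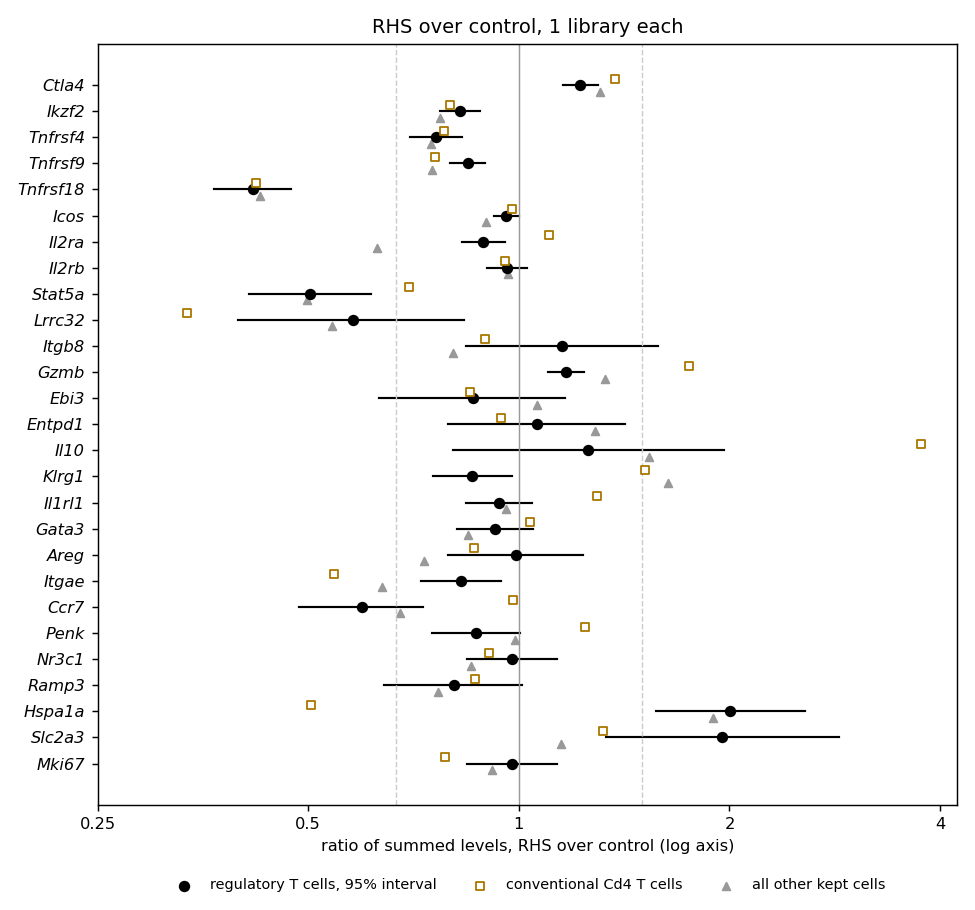
Ratio of summed levels, RHS over control (log axis), for 27 genes in regulatory T cells (black, with 95% counting intervals), conventional Cd4 T cells (open squares) and all other kept cells (triangles); dashed lines mark 1.5 and 1/1.5. Tnfrsf18 at 0.417, Stat5a at 0.504, Lrrc32 at 0.580 and Ccr7 at 0.596 lie left of the lower line, and Hspa1a at 2.00 and Slc2a3 at 1.95 right of the upper one.

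Receptors of neural and stress signals were sparse in these cells. Of 31 genes listed, 16 had 0 UMIs, among them Adrb1, Oprd1, Oprk1 and Nmur1, and 3 passed the minimum. Nr3c1, the glucocorticoid receptor, gave 423 and 314 UMIs, a ratio of 0.978 (0.842 to 1.13). Ramp3 had a ratio of 0.807 (0.642 to 1.01). Penk, which encodes the precursor of enkephalins, gave 485 and 320 UMIs, a ratio of 0.869 (0.752 to 1.00), beside 1.24 in conventional Cd4 T cells. Penk was unevenly spread. The 10 cells with most held 236 of the 485 UMIs in control and 188 of the 320 in RHS, and 17.5% (14.2 to 21.3) and 12.6% (9.50 to 16.2) of members had any.

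Glucocorticoid-responsive genes had 2 of 19 called, both lower, beside 6.81% of all genes, and a list median of -0.08. Mt2, a metallothionein, gave 283 and 125 UMIs, a ratio of 0.582 (0.468 to 0.721), where other cells had 0.155. A single RHS cell held 51 of the 125 UMIs, and without the top cell of each library the ratio was 0.368. Klf9 gave 52 and 23 UMIs, a ratio of 0.583 (0.340 to 0.969), beside 0.575 in other cells. Its ratio was 1.22 (0.780 to 1.91) in conventional Cd4 T cells and 0.970 in Cd8a T cells. Tsc22d3 (GILZ) and Fkbp5, widely used reporters of glucocorticoid signalling, had ratios of 1.01 (0.819 to 1.24) and 1.13 (0.941 to 1.37). Of 16 cyclic AMP feedback genes, 1 was called, Pde3b at 24 and 28 UMIs.

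T cell receptor and NF-kB genes had 3 of 25 called, all lower, beside 6.81% of all genes. Rela gave 158 and 64 UMIs, a ratio of 0.534 (0.393 to 0.718), beside 0.355 in other cells. Nfkb2 gave 52 and 19 UMIs, a ratio of 0.481 (0.269 to 0.828), beside 0.975 in conventional Cd4 T cells and 0.718 in other cells. Zap70 was the third, at 48 and 21 UMIs. Of 23 immediate early genes, Atf3 was called higher and Fosb lower. Atf3 gave 27 and 55 UMIs, a ratio of 2.68 (1.66 to 4.42), and 1 RHS cell held 19 of them.

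Stress chaperones were higher for a pair of genes. Hspa1a gave 113 UMIs in control and 172 in RHS, a ratio of 2.00 (1.57 to 2.57). Hspa1b gave 132 and 193 UMIs, a ratio of 1.93 (1.54 to 2.42). These are near-identical inducible Hsp70 genes, so reads between them may be split. In all other kept cells the ratios were 1.89 and 1.68, while in conventional Cd4 T cells they were 0.505 and 0.456. The other 11 of 13 heat shock genes met neither limit, and the constitutive Hspa8 had a ratio of 0.791.

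Glucose handling gave 2 genes higher and 1 lower of 14, beside 2.8% and 6.81% of all genes. Slc2a3, a glucose transporter, gave 48 and 71 UMIs, a ratio of 1.95 (1.33 to 2.87), beside 1.32 in conventional and 1.15 in other cells. Hk2 gave 35 and 40 UMIs, a ratio of 1.51 (0.932 to 2.44) whose interval includes 1. Eno1, which was lower at 641 and 247 UMIs, had a ratio of 0.508 beside 0.598 in other cells. Of 16 lipid genes, Scd1 was called higher, at 39 and 514 UMIs of which 1 RHS cell held 416. Srebf1, a regulator of lipid synthesis, was called lower at 70 and 33 UMIs. Of 16 cytokine receptors, 1 was called, Il4ra, the receptor chain for interleukins 4 and 13. It gave 145 and 71 UMIs, a ratio of 0.645 (0.479 to 0.863) beside 0.678 in other cells. Of 16 survival and death genes, 1 was called, the pore-forming Bak1, lower at 130 and 65 UMIs.

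Mki67 had a ratio of 0.978 (0.843 to 1.13) and Top2a 1.01 (0.889 to 1.14). Of 23 proliferation genes, 1 was called lower, against 6.81% of all genes, the mitotic cyclin Ccnb1 at 109 and 38 UMIs, with a ratio of 0.459 (0.309 to 0.670). The list median was -0.02 beside -0.29 in all other kept cells.

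Apart from Gzmb, whose 2376 and 2106 UMIs made up most of the summed 2858 and 2486 UMIs of the cytotoxic genes, the called effector genes gave few UMIs. Of 7 T cell cytokine genes that passed, Il6 and Ccl4 were called higher, with 25 and 39 UMIs and 53 and 62 UMIs. A single control cell held 27 of the 53 Ccl4 UMIs. Il17a gave 18 and 7 UMIs. The cytotoxic genes Gzma and Nkg7 were called higher, with 18 and 33 and 49 and 65 UMIs. A single RHS cell held 17 of the 33 Gzma UMIs, and the Gzma ratio of 2.42 became 1.51 without the top cell of each library. In all other kept cells Gzma and Nkg7 had ratios of 1.98 and 1.74. Gzmc was called lower at 86 and 9 UMIs, and its ratio of 0.138 became 0.768 without the top cell of each library. Of 14 antigen presentation genes, H2-DMb1 was called higher and H2-DMa and Psmb8 lower.

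Interferon response genes had 2 of 18 higher and 2 lower, beside 2.8% and 6.81% of all genes. Ifitm3 gave 57 and 104 UMIs, a ratio of 2.40 (1.72 to 3.38), and Ifitm2 55 and 72 UMIs, 1.72 (1.197 to 2.496). In conventional Cd4 T cells their ratios were 0.768 and 0.701. Slfn2 and Zbp1 were the lower ones, at 55 and 18 UMIs and 38 and 18 UMIs.

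Transcripts of other cell types were found in some members and differed between the libraries. The 10 macrophage and monocyte markers summed to 296 CPM in control members and 821 in RHS members, and 22 and 30 members held 3 or more such UMIs. C1qa was at 0, and C1qb is 0 by the rule. Lyz2, the most abundant of them, gave 428 and 1019 UMIs, of which 363 and 937 lay in members with 3 or more UMIs of a single list of another cell type. Dendritic markers summed to 145 and 192 CPM with Clec9a at 0. Keratinocyte markers summed to 109 and 108 CPM, stromal and endothelial markers to 107 and 101, mast cell and basophil markers to 27.2 and 21.6, and neutrophil markers to 8.20 and 4.05. B and plasma cell markers summed to 355 and 286 CPM, and 95 and 54 members held 3 or more of these UMIs. Ighm gave 680 of their 692 UMIs in control and 416 of 424 in RHS. Ighm was left out when members with UMIs of another cell type were counted. The lists of CD8, gamma-delta, natural killer, type 2 innate lymphoid and erythroid cells were not used for it. Members with 3 or more UMIs of a single remaining list numbered 57 in control (12.3%) and 46 in RHS (11.3%), beside 72 and 77 conventional Cd4 T cells. Their median depth was 5076 and 4597.5 UMIs against 2452 and 2081 in the other members. Ifitm3 had 26 of its 57 UMIs in them in control and 54 of 104 in RHS, and its ratio without them was 2.11. Hspa1a and Slc2a3 had ratios of 4.00 and 2.05 without them, and Tnfrsf18 0.444. Over all genes, 151 were called higher and 402 lower without them, among them 86 of the 116 and 306 of the 356 earlier calls that still passed the minimum. The part of such carry-over in the other gene results was not tested.

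Some genes called in the regulatory cells shifted the same way in other cells. Of the 462 called lower, 160 (34.6%) were also past the limit in all other kept cells, and of the 190 called higher, 16 (8.42%) were. In those cells 65 of the 462 and 80 of the 190 went the opposite way. In conventional Cd4 T cells 111 of the 355 lower genes measured there and 22 of the 162 higher ones were past the limit. The shares of all genes past the limit in these cells are not given here, so the counts have no background. Relative to the ratio in other cells, 382 genes were higher and 277 lower. Ppp1ca, a catalytic subunit of protein phosphatase 1, gave 651 and 118 UMIs in regulatory cells, a ratio of 0.239 (0.195 to 0.291). Its ratio was 0.198 in conventional Cd4 T cells and 0.230 in all other kept cells. The actin-binding Cnn2 gave 560 and 127 UMIs, a ratio of 0.299 beside 0.313. Prpf19 of the spliceosome, the chaperonin subunit Cct7, the mitochondrial Timm13 and the redox protein gene Park7 had ratios of 0.285, 0.299, 0.280 and 0.291. In other cells these were 0.249, 0.240, 0.288 and 0.350. Smarcd2, Ncdn, Ube3b and Cdc123 were likewise past the limit in other cells, at 0.361, 0.375, 0.541 and 0.404. Of the 12 named genes with the lowest ratios, Nqo1 was the 1 that met no limit in other cells. Nqo1, a quinone reductase, gave 46 and 11 UMIs, a ratio of 0.315 (0.147 to 0.617) beside 0.726. Kctd17 had the lowest ratio, 0.211 (0.0863 to 0.448) from 50 and 8 UMIs, beside 0.630.

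The 12 genes named with the highest ratios were not past the limit in all other kept cells, and all had low counts. In conventional Cd4 T cells Mrpl39, Pycrl and Hspa2 were past it as well, at 1.84, 2.38 and 1.51. There Nmral1 and Dbt were past the lower limit, at 0.587 and 0.447, and the rest of the 12 met neither. Nmral1 gave 19 and 38 UMIs, a ratio of 2.63 (1.48 to 4.84) beside 0.784 in other cells. Bnip3, a receptor for the removal of mitochondria, gave 37 and 60 UMIs, 2.14 (1.40 to 3.31) beside 0.937. Atg13, an autophagy initiation factor, gave 39 and 61 UMIs, 2.06 (1.36 to 3.16) beside 0.900. Hspa2, a chaperone of the Hsp70 family, gave 82 and 127 UMIs, 2.04 (1.53 to 2.73) beside 1.28. Mrpl39, Ccnq, Dbt, Rev1, Pycrl, Nck1, Hectd4 and Usp36 had ratios between 1.95 and 2.42.

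**Figure D4:**
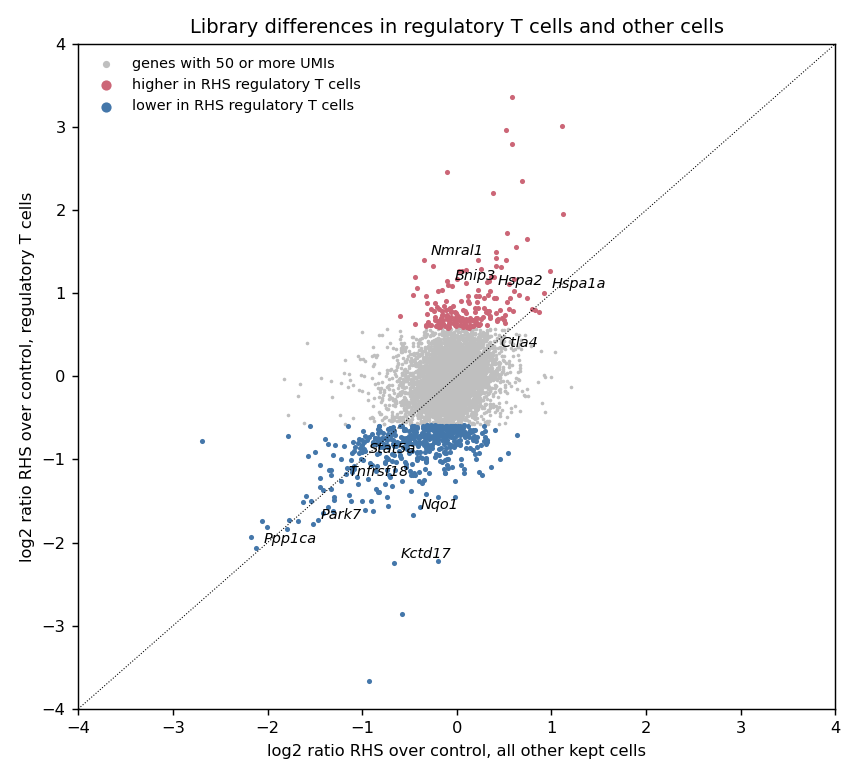
Each point is 1 of the 6784 genes, with its log2 ratio RHS over control in all other kept cells (x axis) and in regulatory T cells (y axis); red and blue mark genes called higher and lower, and 6 genes lie outside the axes. Ppp1ca and Park7 lie near the dotted line of equal ratios, while Kctd17 and Nqo1 lie below it and Nmral1 and Bnip3 above it.

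The regulatory T cells varied among themselves in both libraries. Klrg1 was detected in 220 control and 159 RHS members, 47.6% (43.0 to 52.3) and 39.2% (34.4 to 44.1), or 28.5% and 24.8% after thinning. In keratinocyte barcodes it had 0 of 1025 and 0 of 412, which allows a share of up to 0.293% and 0.728%. Detection of 1 UMI depends on depth. Members with a Klrg1 UMI had a median of 2658 UMIs in control and 2420 in RHS, against 2558.5 and 2122 without. Ctla4, Ikzf2 and Il2ra were all 3 detected in 64.3% of control and 54.2% of RHS members.

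Il1rl1 was detected in 51.3% (46.6 to 55.9) of control and 51.2% (46.3 to 56.2) of RHS members. Members with an Il1rl1 UMI had higher Klrg1, at 375 UMIs against 219 in control and 252 against 135 in RHS. Scaled to depth, these were ratios of 1.94 (1.64 to 2.30) and 2.31 (1.87 to 2.87). Areg was 1.91-fold higher in both libraries, with intervals of 1.41 to 2.59 and 1.35 to 2.71. Gata3 was 1.64-fold and 1.67-fold higher, Ccr6 3.59-fold in both, Dgat2 2.59-fold and 2.54-fold, and Gad1 3.17-fold and 5.65-fold. Mki67 was lower, with ratios of 0.679 and 0.675. Other genes went different ways in the libraries. Penk, the enkephalin precursor, had a ratio of 0.816 (0.678 to 0.981) in control and 3.97 (3.06 to 5.21) in RHS. These intervals count UMIs, while 10 cells held 236 of the 485 Penk UMIs in control and 188 of the 320 in RHS. Single cells held up to 77 and 46. How far such cells set the Penk ratios was not tested. Satb1 had 0.809 (0.665 to 0.983) and 1.42 (1.14 to 1.76). Ccr7 was lower in control, at 0.445 (0.344 to 0.570), with 1.09 (0.773 to 1.53) in RHS, and Gzmb likewise, at 0.708 and 0.966. The differences between libraries in these ratios were not tested. The median depth with and without the UMI was 2362 and 3237 in control and 2288.5 and 2265.5 in RHS, so the cells with Il1rl1 were not deeper in control.

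Members with 3 or more UMIs of 11 cell cycle genes numbered 137 in control (29.7%) and 108 in RHS (26.6%), a ratio of 0.897 (0.691 to 1.16). They had a median of 7425 and 7025 UMIs against 2037 and 1765 in the others. Relative to depth, Itgae, Il1rl1, Areg and Klrg1 were lower in them, with ratios of 0.228, 0.211, 0.245 and 0.391 in control and 0.223, 0.281, 0.238 and 0.414 in RHS. Ctla4 and Ikzf2 were lower by less, with ratios of 0.589 and 0.643 in control and 0.584 and 0.551 in RHS. All these splits rest on UMIs of the same cells and were made within each library, so they describe how transcripts co-occurred and carry no test.

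**Figure D5:**
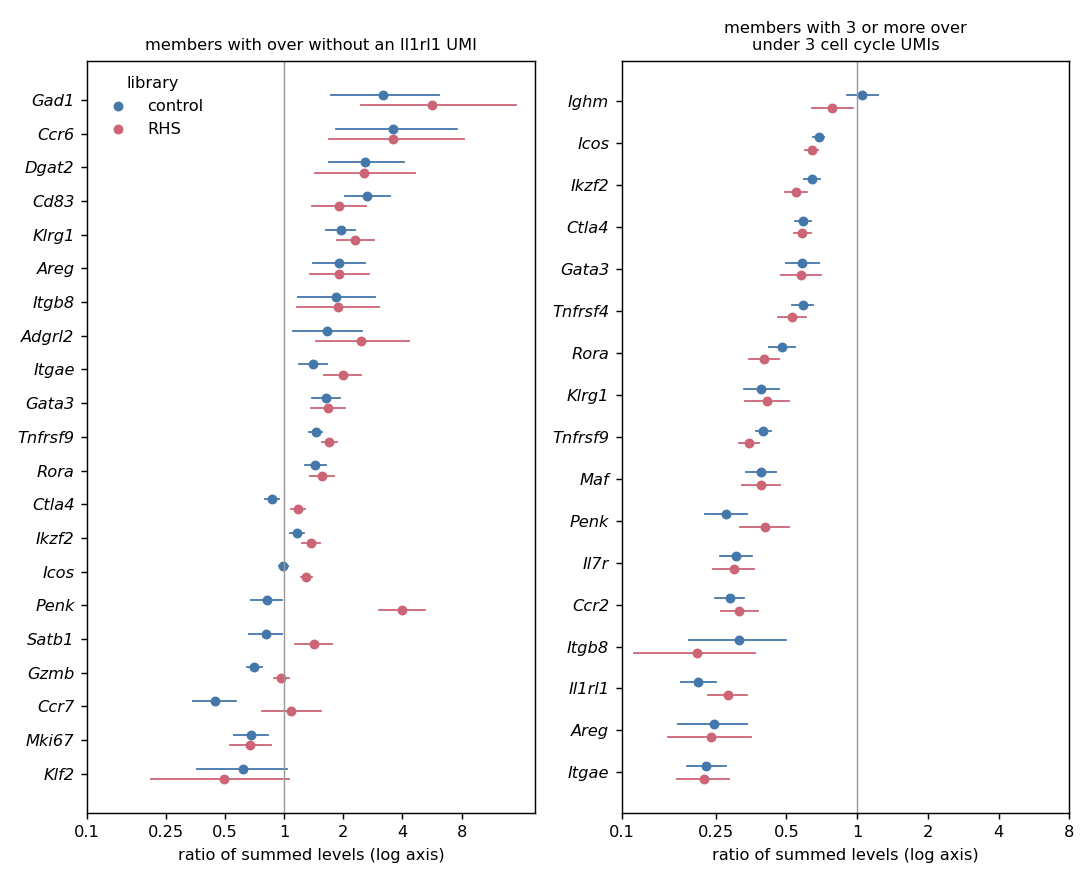
Ratio of summed levels (log axis) between members with and without an Il1rl1 UMI (left) and between members with 3 or more and fewer cell cycle UMIs (right), control in blue and RHS in red, bars 95% counting intervals. Klrg1, Areg and Gata3 lie above 1 on the left in both libraries, Penk and Satb1 below 1 in control and above 1 in RHS, and Itgae, Areg and Il1rl1 near 0.25 on the right. For Penk, 10 cells held 236 of 485 UMIs in control and 188 of 320 in RHS.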

How the data were processed

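The skin matrices that the authors deposited hold UMI counts for each gene in each barcode; the values are whole numbers and were not normalized. Per the submitters' processing notes the tools were R 3.6.0, Seurat 5.1.0 and Cell Ranger with the build GRCm39, and the notes give no roles. The program that made the skin barcodes and the filters before deposit are not given in the sources used here. Skin barcodes held 500 UMIs or more. The filters removed 54 control and 92 RHS barcodes for under 200 genes and 202 and 179 for over 20% mitochondrial UMIs. Scrublet in scanpy 1.11.5, at an expected share of 6%, called 146 (1.15%) and 115 (0.880%) doublets, which were kept in the main values and left out in an alternative; 9 and 2 members were among them. UMIs were summed over cells, ratios had exact conditional binomial intervals and shares Clopper-Pearson intervals at 95%. PCR duplicates are collapsed by UMIs, and the intervals and the floor of 3 UMIs for a count of 0 cover counting error only. The scripts were tested on simulated data. Named genes were those with the 12 highest and 12 lowest ratios among called genes whose interval excluded 1. Their level in the higher library had to be at least that of other cells, and their call had to hold without the top cell. Added were the 15 highest and 10 lowest against conventional Cd4 T cells and the cell type markers. Each of 23 functional lists gave up to 4 genes from 20 UMIs, the 2 with the highest and the 2 with the lowest ratio. Some genes that meet this rule are not reported here. Other genes given with values were chosen from the lists for their roles. A further 13 lists marked other cell types, and the values of some of them are given in the results. Members, lists and rules were chosen with earlier results of these data known. Python 3.11.15, numpy 2.4.6, scipy 1.17.1, pandas 2.3.3 and matplotlib 3.10.9 were used. The 12 planned and 3 added alternatives changed cell filters, doublets, the member rule, depth, scaling, weighting, single top cells and the UMI minimum. The ganglia library was used only to look for Foxp3.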

Additional observations from a re-analysis of the deposited data

Results flagged for a closer look

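Il17a differed in direction between the libraries when regulatory were set against conventional Cd4 T cells. Its ratio was 0.421 (0.228 to 0.747) in control, from 18 and 42 UMIs, and at least 2.25 in RHS, from 7 and 0 UMIs. These UMIs lay in few cells, 7 of 462 regulatory and 6 of 664 conventional cells in control and 6 of 406 and 0 of 592 in RHS, and 1 regulatory control cell held 10 of the 18. The share of cells with Il17a was 1.52% of regulatory against 0.904% of conventional cells in control, so the direction in control differs between UMIs and cells. Scd1, a fatty acid desaturase, also differed in direction between the libraries, with 0.186 (0.129 to 0.263) in control and 15.5 (10.8 to 22.9) in RHS. In RHS a single regulatory cell held 416 of the 514 Scd1 UMIs. Neither difference between libraries was tested.

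In the ganglia library, outside the skin comparisons, 8 Foxp3 UMIs occurred in 8 of 4509 kept nuclei, and 1 nucleus met the whole rule for regulatory T cells.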

How the results depend on the processing

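No paired analysis was possible because each group holds 1 library. The RHS over control ratios of both shares stayed within their main intervals in all 14 values tried. The shares themselves were not compared in this way. They depend on the rule, as 361 control and 307 RHS members had at least 2 Foxp3 UMIs. Counts of called genes moved by over 1.5 times in 14 of 56. With cells thinned to 1000 UMIs they were 84 higher and 113 lower in RHS, of 1895 genes tested, and 324 higher and 225 lower against conventional Cd4 T cells, of 4106. Thinning left 272 and 242 members, and few earlier RHS calls still passed the minimum, 7 of the higher and 44 of the lower, of which 6 and 32 were called again. Against conventional cells 157 of 333 and 169 of 301 were. With the mean of each cell's CPM, 322 were higher in RHS. With at least 20 UMIs they were 435 higher and 981 lower, with at least 100 UMIs 77 and 191, and with no minimum 1259 and 2199, and 942 were lower against conventional cells. Relative to all other kept cells, an alternative added after seeing the data, they were 382 and 277. Of 322 values of list medians, 308 did not move and 14 did. Of 1302 values of 125 named genes in RHS over control, 88 moved and 14 reversed. Fosb reversed to 1.15 with at least 2 Foxp3 UMIs and Bak1 to 1.12 when thinned. Relative to other cells the ratios were Fosb 1.14, Cct7 1.25, Ikzf3 1.05, Il17a 1.67, Klf9 1.01, Lrrc32 1.07, Mt2 3.76, Oas1a 1.06, Ppp1ca 1.04, Prpf19 1.14, Rela 1.503 and Stat5a 1.01. The cause was not tested. Of 275 values against conventional cells, 14 moved and none reversed. Depth limits genes under 50 UMIs, among them Calcrl.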

Other observations

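Immunoglobulin transcripts were found in many regulatory T cells, which was noticed after the values were seen. Ighm, the heavy chain of immunoglobulin M, gave 680 UMIs in 233 of 462 control members and 416 UMIs in 177 of 406 RHS members, 50.4% and 43.6% of cells. Conventional Cd4 T cells held it in 5.12% and 6.42%, Cd8a T cells in 6.46% and 5.32%, macrophage barcodes in 10.6% and 10.9%, and keratinocyte barcodes in 0.585% and 0.971%. After thinning to 1000 UMIs the regulatory shares were 24.9% and 23.2%, against 2.16% and 2.82% of conventional cells. The members held 36.2% of the Ighm UMIs of all kept cells in control and 24.0% in RHS, and macrophage barcodes 13.2% and 23.8%. Of the members with Ighm, 6 of 233 and 2 of 177 held a UMI of the B cell genes Cd79a, Cd79b or Ms4a1. Igkc, the kappa light chain, was detected in 22.9% and 22.4% of members and in 1.05% and 1.69% of conventional cells. The number of Igkc UMIs in all kept cells differed widely between the libraries, at 777 and 11667, while members held 260 and 198.

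Ccr3, the eotaxin receptor best known from eosinophils, gave 49 UMIs in 36 control members and 37 UMIs in 29 RHS members, 7.79% and 7.14% of cells. Conventional Cd4 T cells gave 3 and 7 UMIs. Members held 18.5% and 12.4% of the Ccr3 UMIs of all kept cells, and C1qb macrophage barcodes 41.1% and 46.2%.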
